A study of Mus musculus with 2 samples.

Results

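The genes described here are 10 genes of excitation-contraction coupling and membrane excitability in skeletal muscle: Cacna1s, Cacnb1, Cacng1, Cacna2d1, Ryr1, Stac3, Jph1, Jph2, Clcn1 and Scn4a. They were chosen by symbol for their known role, out of 27998 genes in the count matrices, and all 10 were found. The data are single-nucleus RNA sequencing (snRNA-seq) of mouse gastrocnemius-plantaris (GP) muscle, with 1 library from control mice (Ctrl) and 1 library from mice that lost the nuclear envelope protein Net39 in muscle (cKO). Ctrl mice were Net39 fl/fl without Cre, and cKO mice carried HSA-CreERT2 and Net39 fl/fl. The labels give the strain of both as B6C3F1, while the study's methods describe later crosses to other mice. Both groups therefore carried the floxed allele and both had received tamoxifen. Muscles were taken at 5 months of age, 3 months after the tamoxifen. The HSA promoter, from the skeletal muscle actin gene, drives the Cre in muscle fibres, so nuclei of other cells keep the floxed exon. The protocol says that each library pooled 3 muscles, while the sample titles name mouse 1, so the number of animals is not settled, and no nucleus could be traced to an animal. With 1 library per group there was no replicate and no test, and every interval below covers counting error only.

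A muscle fibre contracts when an action potential runs along its surface and into the transverse tubules. The voltage-gated sodium channel encoded by Scn4a carries the upstroke of that potential, and the chloride channel encoded by Clcn1 stabilises the resting membrane. In the tubule wall the dihydropyridine receptor senses the voltage. It is built from the pore subunit Cacna1s with the subunits Cacnb1, Cacng1 and Cacna2d1. It pulls open Ryr1, the calcium release channel of the sarcoplasmic reticulum, and the adaptor Stac3 is needed for that link. The junctophilins Jph1 and Jph2 hold the tubule and the reticulum together at the triad.

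The promoters of Cacna1s, Cacnb1, Ryr1 and Clcn1 are printed because levels of the first 3 genes were higher in the cKO nuclei dominated by Myh4, and because Clcn1 was the member whose promoter held the MEF2 motif. MEF2 and the MyoD family are transcription factors of muscle, and their motifs were the ones looked for. Each sequence runs 5′ to 3′ from 250 bases before the RefSeq start site (build GRCm38.p6) to 50 bases from it on. Capitals mark the E-box CANNTG and the MEF2 motif. Cacnb1 had a pair of promoters in the table, and the printed one is the downstream one, with the E-box.
Cacna1s, chr1:136052561-136052860, plus strand: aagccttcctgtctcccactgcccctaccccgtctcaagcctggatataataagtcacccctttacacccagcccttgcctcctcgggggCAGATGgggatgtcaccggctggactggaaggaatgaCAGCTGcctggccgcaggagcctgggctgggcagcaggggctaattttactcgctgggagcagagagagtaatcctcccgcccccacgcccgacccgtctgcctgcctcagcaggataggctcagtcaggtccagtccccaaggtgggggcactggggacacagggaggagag
Cacnb1, chr11:98018323-98018622, minus strand: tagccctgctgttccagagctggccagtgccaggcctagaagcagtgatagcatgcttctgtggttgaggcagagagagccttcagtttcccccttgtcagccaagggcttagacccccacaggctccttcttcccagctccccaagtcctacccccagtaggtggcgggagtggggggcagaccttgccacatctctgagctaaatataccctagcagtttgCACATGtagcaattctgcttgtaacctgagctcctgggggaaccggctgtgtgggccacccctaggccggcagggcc
Ryr1, chr7:29125102-29125401, minus strand: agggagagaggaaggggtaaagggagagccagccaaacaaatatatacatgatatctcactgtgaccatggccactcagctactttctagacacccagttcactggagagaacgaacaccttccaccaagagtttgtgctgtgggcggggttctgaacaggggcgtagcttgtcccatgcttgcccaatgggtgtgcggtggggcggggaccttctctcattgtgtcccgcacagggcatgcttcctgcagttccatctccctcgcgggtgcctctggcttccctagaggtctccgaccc
Clcn1, chr6:42286435-42286734, plus strand: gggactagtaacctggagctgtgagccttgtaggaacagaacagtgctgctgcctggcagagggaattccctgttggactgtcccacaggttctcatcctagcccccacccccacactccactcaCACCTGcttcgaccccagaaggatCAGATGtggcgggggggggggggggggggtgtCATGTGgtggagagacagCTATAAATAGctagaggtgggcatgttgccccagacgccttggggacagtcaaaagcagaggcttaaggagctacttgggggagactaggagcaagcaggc

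RefSeq promoters were matched for 7 of the 10 genes, and those of Cacng1, Stac3 and Jph1 were not looked at. The E-box, searched on both strands, stood in the promoters of 4 of the 7 genes (Cacna1s, Cacnb1, Jph2 and Clcn1), against 72.3% of all 32851 promoters of the same length. In Cacna1s the motifs were CAGATG at −160 and CAGCTG at −123, counted in bases from the start site. The MEF2 motif stood in 1 of the 7, as CTATAAATAG at −51 of Clcn1, where it overlapped a TATAAA box at −50. MEF2 was present in 1.86% of all promoters and TATAAA in 13.6%. The CArG motif of serum response factor, present in 1.63% of all promoters, was found in 0 of the 7. The letters of a motif describe the window and do not show that a factor binds there.

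The deposited matrices held 3863 barcodes in Ctrl and 3994 in cKO, of which 5 barcode sequences were shared. Total UMIs, or unique molecules counted, were 10410316 in Ctrl and 8446070 in cKO. After filters and removal of likely doublets 3526 Ctrl nuclei, with a median of 2040.5 UMIs, and 3595 cKO nuclei, with a median of 1611, were used. Malat1, a nuclear non-coding RNA, made up 25.6% of the Ctrl and 30.7% of the cKO UMIs, and mitochondrial genes made up 0.497% and 0.562%. Plpp7, the gene of Net39, stood at 52.5 CPM (UMIs of the gene scaled to a total of 1000000 UMIs of the nuclei concerned) in Ctrl against 62.1 in cKO in the Myh4-main nuclei defined below, a log2 ratio of 0.24 (95% interval −0.03 to 0.51). In Myh7-main, Myh2-main and Myh1-main nuclei Plpp7 had 3 against 9, 15 against 18 and 33 against 27 UMIs, and each interval of the ratio included no difference. In nuclei with mixed myosins Plpp7 had 59.9 CPM (30 UMIs) in Ctrl and 25.5 CPM (17 UMIs) in cKO, and the log2 ratio was −1.23 (−2.18 to −0.32). The loxP sites flank the first exon, while the assay counts 3′ ends, and whether loss of that exon changes such counts was not tested. These values therefore do not check the genotype labels.

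Nuclei were grouped by their main myosin. A nucleus was called Myh7-main, Myh2-main, Myh1-main or Myh4-main, after Myh7, Myh2, Myh1 and Myh4, when the 4 genes together had 3 UMIs or more and 1 of them took 60% or more. The genes encode the heavy chains of type I, IIa, IIx and IIb fibres, from slow to fast. A main myosin could be given to 2535 Ctrl and 2496 cKO nuclei. Myh7-main nuclei numbered 21 in Ctrl, 0.828% of the assigned (exact binomial 95% interval 0.514 to 1.26), and 284 in cKO, 11.4% (10.2 to 12.7). Myh2-main nuclei numbered 170 (6.71%) and 330 (13.2%), Myh1-main nuclei 312 (12.3%) and 394 (15.8%), and Myh4-main nuclei 2032 (80.2%) and 1488 (59.6%). The Myh7-main difference of cKO minus Ctrl stayed between 10.3 and 10.8 points under the 5 alternatives run, while the other classes moved with thinning. When each nucleus was first thinned to 500 UMIs, the difference went from 6.52 to 0.855 points in Myh2-main and from −20.5 to −7.76 points in Myh4-main nuclei. In Myh1-main nuclei it went from 3.48 to −3.71 points, and the order of the libraries turned. Thinning also left fewer nuclei with a main myosin, 593 in Ctrl and 906 in cKO. Dropping nuclei below 1000 UMIs instead gave 6.59, −21.3 and 4.00 points for Myh2-main, Myh4-main and Myh1-main nuclei. The part of depth in the shift after thinning was not tested. Slow-fibre marker genes outside the rule reached 10990 CPM in the Ctrl and 8603 CPM in the cKO Myh7-main nuclei, and 69.4 and 272 CPM in Myh4-main nuclei. The classes are ranges of a myosin share and not separate types: 204 Ctrl and 244 cKO assigned nuclei had a share of 60 to 70%.

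**Figure D1:**
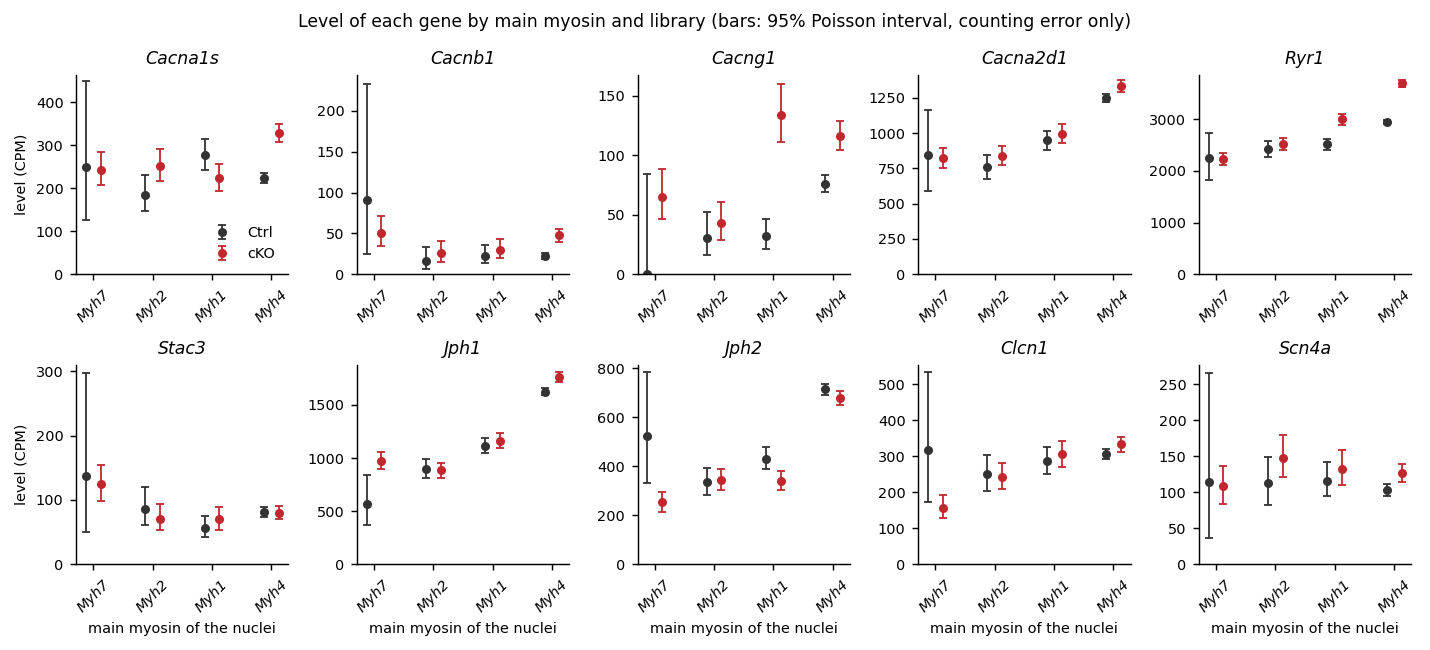
Level of each of the 10 genes in CPM (vertical axes, each panel with its own scale) in Myh7-main, Myh2-main, Myh1-main and Myh4-main nuclei (horizontal axes) of the Ctrl and cKO libraries, with exact Poisson 95% intervals as bars. Ryr1 in Myh4-main nuclei stood at 2950.2 CPM in Ctrl against 3702 in cKO, while Stac3 there stood at 80.9 and 79.6 CPM.

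Of the voltage sensor subunits, Cacna1s, the pore and voltage-sensing subunit (ENSMUSG00000026407, GRCm38 chr1:136052750-136119822, plus strand), was higher in cKO among Myh4-main nuclei. Its level there was 223 CPM in Ctrl (exact Poisson 95% interval 211 to 236, 1301 UMIs) against 327 in cKO (308 to 348, 1008 UMIs), and the log2 ratio was 0.55 (0.43 to 0.67). In Myh2-main nuclei it was 185 CPM in Ctrl against 252 in cKO, a log2 ratio of 0.45 (0.06 to 0.85). Myh1-main nuclei went the other way. There the level was 277 CPM in Ctrl (242 to 314) against 224 in cKO (194 to 257), a log2 ratio of −0.30 (−0.58 to −0.03). With classes assigned after thinning to 500 UMIs the ratio was 0.15. In Myh7-main nuclei 11 Ctrl UMIs gave 250.3 CPM and 153 cKO UMIs gave 243 CPM, and the wide interval of the ratio, from −0.92 to 0.99 on the log2 scale, does not separate them.

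Cacnb1, the intracellular subunit that brings the channel to the membrane (ENSMUSG00000020882, chr11:98001508-98023034, minus strand), had few UMIs in every class. In Myh4-main nuclei it had 22.0 CPM in Ctrl (18.3 to 26.1, 128 UMIs) against 47.4 in cKO (40.1 to 55.8, 146 UMIs), and the log2 ratio was 1.11 (0.76 to 1.46). The intervals of both levels did not overlap. In Myh2-main nuclei 7 Ctrl and 18 cKO UMIs gave 16.4 and 25.6 CPM, and in Myh1-main nuclei 19 and 27 UMIs gave 22.6 and 29.7 CPM. In Myh7-main nuclei 4 Ctrl UMIs gave 91.0 CPM and 32 cKO UMIs gave 50.9 CPM, with a log2 interval of −2.33 to 1.12. The ratios of these 3 classes were not separable from 1 at this depth. In nuclei with mixed myosins, where no myosin reached 60%, Cacnb1 had 5 UMIs in Ctrl (9.98 CPM) and 31 in cKO (46.6 CPM), a log2 ratio of 2.22 (0.85 to 3.94). In nuclei with markers of fibro-adipogenic progenitors Cacnb1 had 10.4 CPM (4.51 to 20.6) in Ctrl and 19.0 CPM (5.19 to 48.7) in cKO. The Ctrl Myh2-main and mixed levels lay within that Ctrl interval, and the cKO Myh4-main and mixed levels within the cKO interval.

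Cacng1, the skeletal muscle gamma subunit that limits calcium entry (ENSMUSG00000020722, chr11:107703218-107716522, minus strand), differed most between libraries in Myh1-main nuclei. The level there was 32.0 CPM in Ctrl (21.1 to 46.6, 27 UMIs) against 134 in cKO (111 to 160.0, 122 UMIs), and the log2 ratio was 2.06 (1.45 to 2.72). The cKO level in Myh1-main nuclei did not differ from that in cKO Myh4-main nuclei beyond counting error, whereas in Ctrl it lay below the Myh4-main level. In Myh4-main nuclei Cacng1 had 75.9 CPM in Ctrl (69.0 to 83.3) against 116 in cKO (104 to 129), a log2 ratio of 0.61 (0.41 to 0.82). Myh2-main nuclei had 30.4 and 42.7 CPM, with a log2 interval of −0.49 to 1.55 that included 0. In the 21 Ctrl Myh7-main nuclei Cacng1 had 0 UMIs, with a floor of 3 UMIs at 68.3 CPM and an exact Poisson upper limit of 83.9 CPM, and the cKO level of 65.2 CPM (41 UMIs) was below both. With the counts of every nucleus thinned to 500 UMIs and the classes left as above, 5 of 312 Ctrl Myh1-main nuclei (1.60%, 0.522 to 3.70) and 19 of 394 cKO nuclei (4.82%, 2.93 to 7.43) held a Cacng1 UMI. Unthinned shares were 7.37% and 19.0%, at median depths of 2240.0 and 1797.5 UMIs. Among nuclei with markers of fibro-adipogenic progenitors, cells that should lack the gene, the thinned shares were 0.625% in Ctrl and 0.952% in cKO, at medians of 1579 and 1607 UMIs. By level those nuclei, which may mix several kinds, had 37.9 CPM (25.4 to 54.4) of Cacng1 in Ctrl and 61.9 CPM (32.9 to 106) in cKO, so the Ctrl Myh1-main level of 32.0 CPM was not above this background and the cKO level was.

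Cacna2d1, the alpha2-delta subunit on the outer face of the channel (ENSMUSG00000040118, chr5:15934691-16374511, plus strand), differed little. Myh4-main nuclei had 1248 CPM in Ctrl (1219.55 to 1277) against 1334 in cKO (1294 to 1376), a log2 ratio of 0.10 (0.04 to 0.15). In Myh7-main, Myh2-main and Myh1-main nuclei the log2 ratios were −0.04, 0.15 and 0.07, and each interval included 0. The gene lay at lower levels in the slower classes of both libraries, with 842, 758 and 948 CPM in Ctrl and 821, 839 against 994 in cKO, in the order Myh7-main, Myh2-main and Myh1-main. Nuclei with markers of fibro-adipogenic progenitors had 829 CPM (766 to 896) in Ctrl and 771 CPM (657 to 899) in cKO. The Myh7-main and Myh2-main levels were not above these intervals in either library.

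Of the release channel and its adaptor, Ryr1 (ENSMUSG00000030592, chr7:29003344-29125179, minus strand) was the most precisely counted gene of the set. In Myh4-main nuclei 17185 Ctrl UMIs gave 2950.2 CPM (2906 to 2995) and 11394 cKO UMIs gave 3702 CPM (3634 to 3770.5), a log2 ratio of 0.33 (0.29 to 0.36). In Myh1-main nuclei the levels were 2519 CPM in Ctrl (2412 to 2628) against 2997 in cKO (2885 to 3111), a log2 ratio of 0.25 (0.17 to 0.33). The faster classes were thus both higher in cKO, by less than 1.5-fold. Myh2-main nuclei had 2420.5 and 2513 CPM and Myh7-main nuclei 2253 and 2228 CPM, log2 ratios of 0.05 and −0.02, and neither interval excluded 0.

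Stac3 (ENSMUSG00000040287, chr10:127501686-127508823, plus strand) did not follow Ryr1. It had 80.9 CPM in Ctrl (73.7 to 88.5, 471 UMIs) against 79.6 in cKO (69.9 to 90.2, 245 UMIs) in Myh4-main nuclei, a log2 ratio of −0.02 (−0.25 to 0.20). The interval leaves out a difference of 1.5-fold in either direction by counting error. Myh1-main nuclei had 57.0 and 70.3 CPM, Myh2-main nuclei 86.6 and 71.2 CPM, and Myh7-main nuclei 137 CPM (6 UMIs) and 124 CPM (78 UMIs). The intervals of these ratios all included 1.

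The junctophilins differed from each other. Jph1, the main junctophilin of skeletal muscle (ENSMUSG00000042686, chr1:16964560-17097889, minus strand), had 569 CPM in Ctrl (368 to 840, 25 UMIs) against 976 in cKO (901 to 1057, 614 UMIs) in Myh7-main nuclei, a log2 ratio of 0.78 (0.20 to 1.42). Jph2, the form shared with the heart (ENSMUSG00000017817, chr2:163336242-163397993, minus strand), had 523 CPM in Ctrl (332 to 785, 23 UMIs) against 253 in cKO (215 to 295, 159 UMIs) in the same nuclei, a log2 ratio of −1.05 (−1.69 to −0.35). Both ratios rest on the 21 Ctrl nuclei. The junctophilins thus went opposite ways between the libraries in these slow-myosin nuclei, and the intervals of both ratios excluded 0. In nuclei with markers of fibro-adipogenic progenitors Ctrl Jph1 had 620 CPM (566 to 679) and cKO Jph2 238 CPM (177 to 314). The Ctrl Jph1 and cKO Jph2 levels of Myh7-main nuclei were thus not above that background, while the other side of each ratio was. Of the 21 Ctrl nuclei, 10 held no UMI of a marker of cells outside the fibre. With such nuclei alone the log2 ratios were 0.61 and −1.53.

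In Myh4-main nuclei Jph1 had 1625 CPM in Ctrl (1593 to 1658) against 1759 in cKO (1713 to 1807), a log2 ratio of 0.11 (0.07 to 0.16) that became −0.018 with classes assigned after thinning to 500 UMIs. Jph2 had 714 CPM (692 to 736) and 677 CPM (649 to 707), a log2 ratio of −0.08. In Myh1-main nuclei Jph2 was lower in cKO, with 431 CPM in Ctrl (388 to 478) against 339 in cKO (303 to 379), a log2 ratio of −0.34 (−0.57 to −0.12). Jph1 there had 1117 and 1161 CPM, and in Myh2-main nuclei both genes had log2 ratios near 0 (−0.03 for Jph1 and 0.04 for Jph2). Jph1 overlaps an antisense gene, Gm28376, which had 1926 UMIs in the assigned nuclei. Per the study's methods Cell Ranger ran at its default settings, which assign reads by strand.

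Of the excitability channels, Clcn1 (ENSMUSG00000029862, chr6:42286685-42315756, plus strand) had few UMIs in the slowest class, where its direction depended on which nuclei were kept. In Myh7-main nuclei it had 319 CPM in Ctrl (174 to 534, 14 UMIs) against 157 in cKO (128 to 192, 99 UMIs), and the log2 ratio was −1.02 (−1.83 to −0.09). When every nucleus that held any UMI of a marker of cells outside the fibre was left out, 10 Ctrl Myh7-main nuclei remained and the ratio was 0.15, so its direction is not settled. In Myh4-main nuclei the levels were 306 and 334 CPM, a log2 ratio of 0.12 (0.01 to 0.24). In Myh2-main nuclei Clcn1 had 250.5 and 243 CPM and in Myh1-main nuclei 287 and 305 CPM, and both intervals of the ratio included 1.

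Scn4a (ENSMUSG00000001027, chr11:106318592-106353288, minus strand) had 103 CPM in Ctrl (94.9 to 112, 600 UMIs) against 126 in cKO (114 to 139.6, 389 UMIs) in Myh4-main nuclei, a log2 ratio of 0.30 (0.11 to 0.48). It became −0.14 in the 406 Ctrl and 550 cKO nuclei assigned to Myh4 after thinning to 500 UMIs, with all their UMIs counted. The other classes gave 112 and 148 CPM in Myh2-main nuclei, 116 and 133 CPM in Myh1-main nuclei, and 114 CPM (5 UMIs) and 108 CPM (68 UMIs) in Myh7-main nuclei. None of these 3 ratios had an interval that excluded 1.

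Across the 10 genes the cKO library was more often above than below Ctrl in Myh4-main nuclei. There 2 of 10 were at least 1.5-fold higher (Cacnb1 and Cacng1), against 7.76% of the 10503 genes with enough UMIs, and 0 were at least 1.5-fold lower, against 14.5%. An interval wholly above 1 was found for 8 of 10, against 10.7% of all genes, and wholly below 1 for 0 of 10, against 14.9%. Jph2 and Stac3 were the others, and of the 8 the ratios of Jph1 and Scn4a turned to −0.018 and −0.14 with classes assigned after thinning to 500 UMIs. These genes were counted deeply, and an interval excludes 1 more readily with more UMIs, so this count is not like for like with all genes. The median log2 ratio of the 10 genes was 0.21, beside −0.07 over all genes. Cacng1 in these nuclei lay near the limit of 1.5-fold and passed below it when doublets were kept or when the CPM of single nuclei was averaged.

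In Myh1-main nuclei 1 of 10 was at least 1.5-fold higher (Cacng1, against 10% of genes) and 0 lower (against 16.4%). The interval lay above 1 for 2 of 10 (Cacng1 and Ryr1, against 7.04%) and below 1 for 2 (Cacna1s and Jph2, against 12.1%). Their median log2 ratio was 0.14, beside −0.11 over all genes. In Myh2-main nuclei 1 of 10 passed 1.5-fold upwards (Cacnb1, on 7 and 18 UMIs, against 10.6%) and 0 downwards (against 19.2%), with a median of 0.10 beside −0.13. The interval lay above 1 for Cacna1s alone (against 4.93%) and below 1 for 0 of 10 (against 13.7%). In Myh7-main nuclei 1 of 10 was higher (Jph1, against 21%) and 3 were lower (Cacnb1, Jph2 and Clcn1, against 27.7%), shares near those of all genes. The ratio of Cacnb1 turned to 0.71 with classes assigned after thinning to 500 UMIs and that of Clcn1 to 0.15 without nuclei that held outside markers. The interval lay above 1 for Jph1 (against 2.19%) and below 1 for Jph2 and, with that turn, for Clcn1 (against 7.67%). The median of the 9 genes with a fold there was −0.07, beside −0.14. Malat1 made up 22.5% of the UMIs of Ctrl and 33.2% of those of cKO Myh7-main nuclei, and 26.1% and 28.2% in Myh4-main nuclei. In nuclei with mixed myosins 2 of 10 were at least 1.5-fold higher (Cacnb1 and Cacng1, against 10.7%) and 0 lower (against 20.1%), and intervals lay above 1 for 3 (against 6.57%) and below 1 for 2 (against 13.9%).

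**Figure D2:**
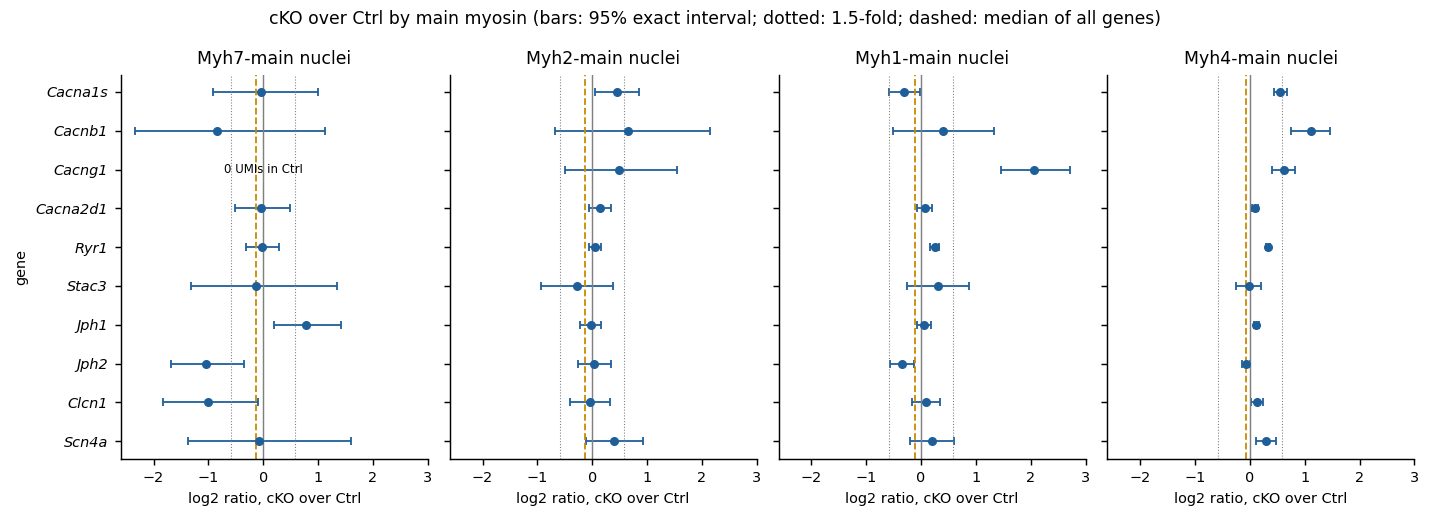
Log2 ratio of cKO over Ctrl CPM (horizontal axis) of the 10 genes (vertical axis) in the 4 main-myosin classes, with exact conditional 95% intervals, dotted lines at 1.5-fold and a dashed line at the median of all genes. Cacnb1 at 1.11 and Cacng1 at 0.61 lie past the upper dotted line in Myh4-main nuclei, and Cacng1 reached 2.06 in Myh1-main nuclei.

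Within each library, Ryr1, Jph1, Jph2 and Cacna2d1 had their highest level in Myh4-main nuclei. Ryr1, Jph1 and Cacna2d1 were lower in each of the 3 slower classes than in Myh4-main nuclei, in both libraries, with intervals that excluded 1. For Ryr1 the ratio to Myh4-main nuclei in the order Myh7-main, Myh2-main and Myh1-main was 0.764, 0.820 and 0.854 in Ctrl, and 0.602, 0.679 and 0.810 in cKO. In Ctrl only the step of Ryr1 from Myh4-main to Myh1-main nuclei exceeded counting error, while in cKO each step of that order did. For Jph1 the ratios were 0.350, 0.554 and 0.687 in Ctrl and 0.555, 0.503 and 0.660 in cKO, so the Myh7-main nuclei stood last in Ctrl and did not differ from Myh2-main nuclei beyond counting error in cKO.

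The ratio of Myh7-main to Myh4-main nuclei was lower in cKO than in Ctrl for all of the 9 genes with UMIs in both except Jph1. All genes shifted the same way, with a median log2 ratio of 0.49 in Ctrl and −0.08 in cKO, beside −0.05 and −0.72 for the 10 genes. On the 11 Ctrl nuclei assigned after thinning to 500 UMIs the Ctrl log2 ratios of Cacna1s, Scn4a and Cacna2d1 were −0.99, −1.57 and −1.04, below those of cKO. Jph2 in Myh7-main nuclei was at 0.733 of the Myh4-main level in Ctrl, with an interval of 0.464 to 1.10, and at 0.373 (0.316 to 0.439) in cKO. Clcn1 was at 1.04 (0.567 to 1.75, 14 UMIs) in Ctrl Myh7-main nuclei and at 0.472 (0.3799 to 0.580) in cKO Myh7-main nuclei. With a myosin share of at least 80% the Ctrl ratio of Clcn1 went from 0.06 to −0.62 on the log2 scale. The difference between the libraries in these orders was not tested.

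The small subunits and Cacna1s had another order. Cacna1s in Ctrl was higher in Myh1-main than in Myh4-main nuclei, at a ratio of 1.24 (1.07 to 1.42), or 0.31 on the log2 scale, which became 0.0023 with classes assigned after thinning to 500 UMIs. In cKO it was lower in all 3 slower classes, at 0.743, 0.770 and 0.684. Cacng1 in Myh1-main nuclei was at 0.422 of the Myh4-main level in Ctrl and at 1.16 (0.933 to 1.42) in cKO, while Myh2-main nuclei were at 0.401 and 0.368, the latter going from −1.44 to −3.10 on the log2 scale with classes assigned after thinning to 500 UMIs. Stac3 was the gene that stood higher in Myh7-main nuclei of cKO, at 1.56 (1.19 to 2.02), beside 1.69 (0.616 to 3.70) on 6 UMIs in Ctrl. Cacnb1 in Ctrl Myh7-main nuclei had a ratio of 4.14 (1.11 to 10.9) on 4 UMIs, beside 1.07 in cKO. For Scn4a no class differed from Myh4-main nuclei beyond counting error in either library.

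Counted over the set, 4 of 10 genes were at least 1.5-fold lower in Myh2-main than in Myh4-main nuclei in Ctrl (against 24.5% of all genes) and 5 of 10 in cKO (against 25.2%). The counts for Myh1-main nuclei were 2 in Ctrl (against 20%) and 3 in cKO (against 20.3%). For Myh7-main nuclei they were 1 in Ctrl (against 10.5%) and 6 in cKO (against 24.7%). In the other direction 2 passed 1.5-fold in Ctrl Myh7-main nuclei (Cacnb1 and Stac3, against 28.5%) and 1 in cKO Myh7-main nuclei (Stac3, against 18.4%). In Myh2-main nuclei it was 0 in both libraries (against 22.3% in Ctrl and 17.1% in cKO), and in Myh1-main nuclei 0 as well (against 14.2% and 11.6%). Intervals wholly below 1 were found for 3, 6 and 6 of 10 genes in Ctrl Myh7-main, Myh2-main and Myh1-main nuclei (against 2.57%, 11.3% and 11.1%) and for 7, 8 and 6 in cKO (against 16.4%, 16.9% and 14%). Intervals wholly above 1 were found for 1, 0 and 1 in Ctrl (against 6.57%, 14% and 10.7%) and for 1, 0 and 0 in cKO (against 13.6%, 13.7% and 10.1%). The median log2 ratios for Myh2-main nuclei were −0.36 in Ctrl and −0.61 in cKO, beside −0.02 and −0.11 over all genes.

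**Figure D3:**
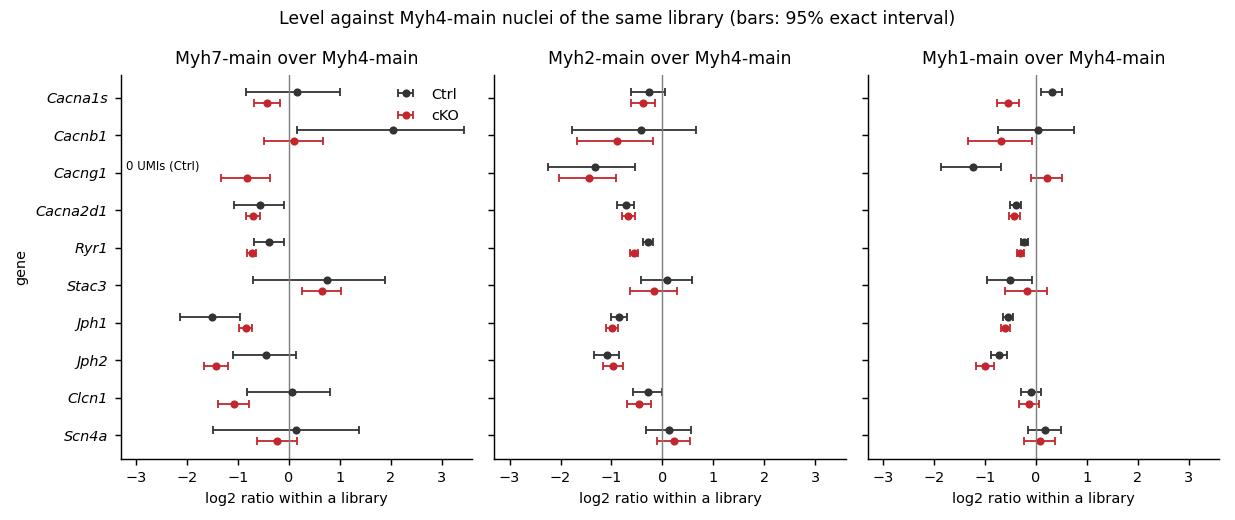
Log2 ratio of the level in Myh7-main, Myh2-main and Myh1-main nuclei over that in Myh4-main nuclei (horizontal axes) for each gene, in Ctrl and in cKO, with exact conditional 95% intervals. Ryr1, Jph1 and Cacna2d1 lie left of 0 in every class and library, and Cacng1 in Myh1-main nuclei stands at a ratio of 0.422 in Ctrl and 1.16 in cKO.

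Over all assigned nuclei the levels of a gene can differ because classes take other shares or because levels within classes differ, and both parts were computed. Ryr1 was 387 CPM higher in cKO, with −214 CPM (−242 to −185) owed to the class shares and 601 CPM (531 to 670.2) to the levels inside the classes. For Jph2 both parts were negative, −76.6 CPM from shares and −54.4 CPM from levels, which add to −131 CPM. Jph1 had −190.2 CPM from shares and 123 CPM from levels, a total of −66.7 CPM. Its ratio over all assigned nuclei of −0.06 on the log2 scale turned to 0.020 with totals without Malat1 and mitochondrial genes and to 0.025 relative to the median gene. The parts of Cacna2d1 were −104 and 73.2 CPM. The parts moved with the settings. With classes assigned after thinning to 500 UMIs the share part was −107 CPM for Ryr1 and −33.6 CPM for Jph2, and the level part of Jph1 was 22.8 CPM. With totals without Malat1 and mitochondrial genes the level part was 1049.6 CPM for Ryr1, 263 CPM for Jph1 and 179 CPM for Cacna2d1. No sign of these parts changed for Ryr1, Jph1, Jph2 and Cacna2d1 under the 7 alternatives run.

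Cacna1s was 62.4 CPM higher in cKO over all assigned nuclei, of which 71.0 CPM came from levels and −8.65 CPM (−18.0 to 0.66) from shares. Cacng1 was 35.9 CPM higher, with 47.9 CPM from levels and −12.1 CPM from shares. Cacnb1 had 17.2 of 19.8 CPM and Scn4a 21.8 of 23.0 CPM from levels. With classes assigned after thinning to 500 UMIs the level part of Scn4a was 10.3 CPM and its share part turned from 1.23 to −6.35 CPM. With totals without Malat1 and mitochondrial genes the level part was 118 CPM for Cacna1s, 72.0 CPM for Cacng1, 26.8 CPM for Cacnb1 and 39.3 CPM for Scn4a. Clcn1 and Stac3 differed by −4.66 and 3.43 CPM in all, and the intervals of their level parts included 0. Over all assigned nuclei 2 of 10 genes passed 1.5-fold upwards (Cacnb1 and Cacng1, against 8.12% of 11311 genes) and 0 downwards (against 14.5%), with intervals above 1 for 5 (against 12.5%) and below 1 for 2 (against 20.5%).

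**Figure D4:**
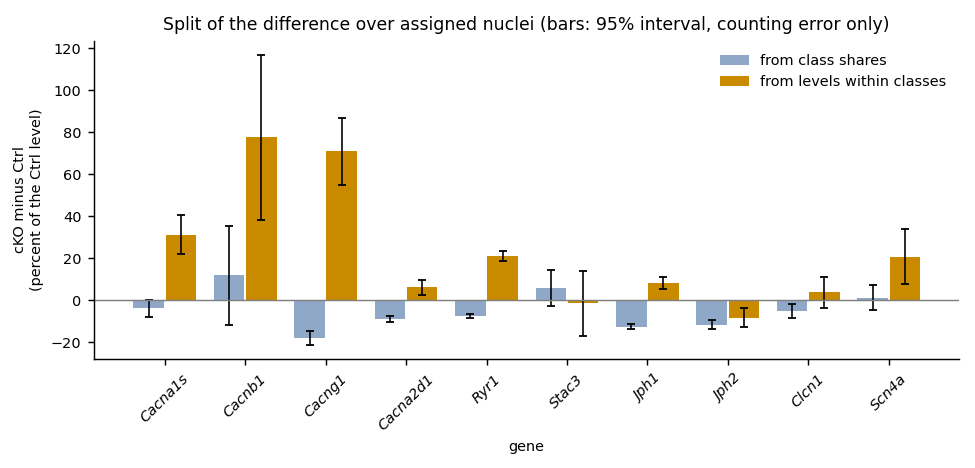
Difference of cKO minus Ctrl over all assigned nuclei, in percent of the Ctrl level (vertical axis), for each gene (horizontal axis), as bars for the part from class shares and the part from levels within classes. The level part was 77.6% for Cacnb1 and 71.0% for Cacng1, and for Jph2 both parts lie below 0, at −11.7% and −8.28%.

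Nuclei at the neuromuscular junction, where the motor nerve meets the fibre, are known to express their own set of genes. Nuclei with at least 3 UMIs over at least 2 junction markers numbered 71 in Ctrl and 65 in cKO, with medians of 3109 and 2908 UMIs. In them Cacng1 had 121 CPM in Ctrl (37 UMIs) against 231 in cKO (59 UMIs), and the log2 ratio was 0.94 (0.32 to 1.57). Scn4a, whose channel is concentrated at the junction, had 94.5 CPM (29 UMIs) and 180.2 CPM (46 UMIs), and the log2 ratio was 0.93 (0.23 to 1.65). Cacna2d1 was lower in cKO, at 1375 and 924 CPM, and so was Jph2, at 629 and 431 CPM, log2 ratios of −0.57 and −0.55. Myh4 was lower in the same nuclei too, at 1929 and 1469 CPM (−0.39, with −0.58 to −0.20), so the sets differed in myosin, and its part in these ratios was not tested. Cacnb1 rested on 6 Ctrl and 14 cKO UMIs, or 19.6 and 54.8 CPM, a log2 ratio of 1.49 (0.02 to 3.15). Ryr1 had 2493 and 2621 CPM, with an interval that included no difference. Nuclei with markers of the myotendinous junction, where fibre and tendon join, numbered 66 and 71. In those nuclei Cacng1 had 147 and 136 CPM and Scn4a 115 and 83.9 CPM, with intervals that included no difference, while Clcn1 had 199 CPM in Ctrl against 283 in cKO, a log2 ratio of 0.51 (0.03 to 0.99). Jph1 was lower there, at 1287 and 1087 CPM, a log2 ratio of −0.24 (−0.46 to −0.03), beside Myh4 at 1699 and 1167 CPM (−0.54, with −0.74 to −0.35). Both sets are cuts on a marker score, not cell types, and 21 Ctrl and 17 cKO neuromuscular nuclei stood at the minimum of 3 UMIs.

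Muscle RNA was also counted in nuclei that held markers of cells outside the fibres. Nuclei with markers of fibro-adipogenic progenitors (FAPs), the connective tissue cells of muscle, numbered 320 in Ctrl and 105 in cKO, of which 61 and 21 stood at the minimum of 3 marker UMIs. A Ryr1 UMI was found in 48.8% of them in Ctrl and in 43.8% in cKO, so the set may mix nuclei of several kinds. In them the 10 genes stood at 38.2% (Jph1) to 66.4% (Cacna2d1) of their Myh4-main level in Ctrl and at 24.2% (Clcn1) to 60.2% (Scn4a) in cKO. Myh4 itself, a gene of fibres alone, was at 38.4% of its Myh4-main level in Ctrl and at 21.4% in cKO. Ryr1 had 1345 CPM in Ctrl against 1166 in cKO FAP-marker nuclei, a log2 ratio of −0.21, whereas in Myh4-main nuclei it was higher in cKO. Clcn1 had a log2 ratio of −0.84 (−1.67 to −0.10) there, on 111 and 17 UMIs. The part of fibre RNA from outside a nucleus in the ratios of the myosin classes was not tested.

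**Figure D5:**
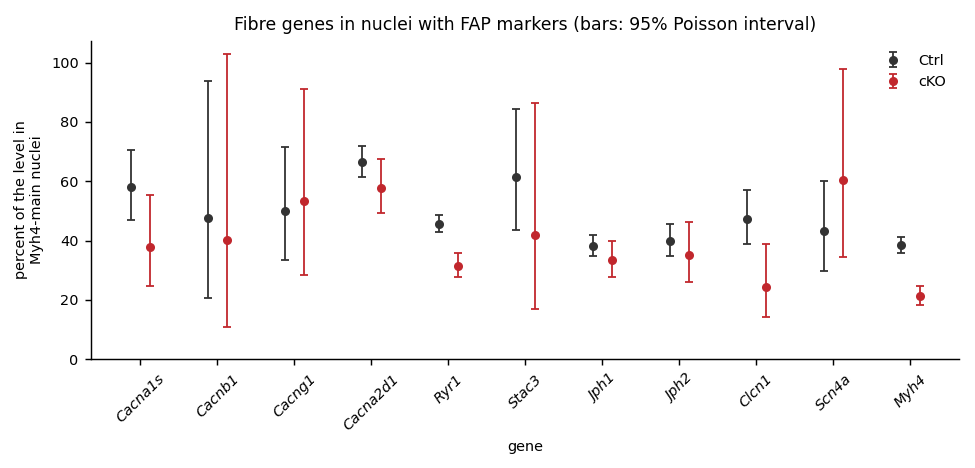
Level of each of the 10 genes and of Myh4 in nuclei with FAP markers (vertical axis), in percent of the level in Myh4-main nuclei of the same library, for Ctrl and cKO. Myh4, which FAPs do not use, lies at 38.4% in Ctrl and 21.4% in cKO, and the 10 genes lie between 24.2% and 66.4%.

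A further list held 29 other genes of the triad and of membrane excitability. In Myh4-main nuclei 28 of them had enough UMIs, 2 were at least 1.5-fold higher in cKO (against 7.76% of all genes) and 1 at least 1.5-fold lower (against 14.5%), with a median log2 ratio of 0.08. Among those with at least 50 UMIs, Calm2, one of the genes for the calcium sensor calmodulin, was highest, at 199 CPM in Ctrl against 336 in cKO, a log2 ratio of 0.75 (0.63 to 0.88). Sypl2, a triad membrane protein also called mitsugumin, had 87.9 and 117 CPM, a log2 ratio of 0.42 (0.22 to 0.61). Atp1b1, the beta subunit of the sodium pump, had 24.4 and 33.8 CPM, a log2 ratio of 0.47 (0.09 to 0.85). In Myh2-main nuclei Atp1b1 was lower in cKO instead, at 499 and 234 CPM, a log2 ratio of −1.09. In that class 2 of 25 genes were higher by 1.5-fold (against 10.6%) and 5 lower (against 19.2%). In Myh1-main nuclei 0 of 27 were higher (against 10%) and 5 lower (against 16.4%), and in Myh7-main nuclei 6 of 23 were higher (against 21%) and 6 lower (against 27.7%).

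Of 29 paralogs of the 10 genes, which serve mostly in heart, smooth muscle or nerve, 18 had enough UMIs in Myh4-main nuclei, where 1 was at least 1.5-fold higher in cKO (against 7.76% of all genes) and 5 at least 1.5-fold lower (against 14.5%). The cardiac and vascular pore subunit Cacna1c had 35.4 CPM in Ctrl (206 UMIs) against 7.47 in cKO (23 UMIs), and the log2 ratio was −2.24 (−2.93 to −1.62). Cacna2d4 had 92.5 and 21.1 CPM, a log2 ratio of −2.13 (−2.53 to −1.76), and Cacnb2 had 11.7 and 4.55 CPM, a log2 ratio of −1.36. Nuclei with markers of other cells were also fewer in cKO, at 320 and 105 for FAPs, 92 and 33 for endothelium, and 33 and 12 for smooth muscle and pericytes. A wider cut than those sets, chosen after the data were seen, left out every nucleus with any UMI of a marker of cells outside the fibre. It kept 1469 Ctrl and 1244 cKO Myh4-main nuclei. In them Cacna1c had 11.2 CPM (43 UMIs) in Ctrl and 1.66 CPM (4 UMIs) in cKO, a log2 ratio of −2.76 (−4.70 to −1.30), so its Ctrl level was much lower than with those nuclei. Cacna2d4 kept its levels, at 91.6 and 21.6 CPM, a log2 ratio of −2.08 (−2.53 to −1.66). The ratio of Cacnb2 became −0.18 (−1.46 to 1.01), which no longer separated the libraries. Ryr3 had 18.0 and 27.0 CPM in Myh4-main nuclei, a log2 ratio of 0.58 (0.15 to 1.01), and without the nuclei with outside markers 0.43 (−0.12 to 0.97). In Myh7-main nuclei Ryr3 had 341 CPM in Ctrl (15 UMIs) against 110 in cKO (69 UMIs), and the log2 ratio was −1.64. With 2 to 9 paralogs measured in each of the slower classes, no count is read there.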

How the data were processed

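Nuclei of pooled GP muscle were profiled with a 3′-end droplet assay, 1 library per group. The authors deposited raw UMI counts per gene and barcode, made with Cell Ranger 3.1.0 on mm10 per the submitters' processing notes. The study's methods state default settings, under which reads are assigned by strand. The annotation release, and whether the reference counted introns, are not given in the sources used here, and the labels and the methods name different kit versions, so the chemistry is unsettled. Nuclear RNA is rich in introns, so intron handling could change the counts of long genes such as Cacna2d1.

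Nuclei with at least 100 genes, at least 500 UMIs and at most 10% mitochondrial UMIs were kept (3833 Ctrl, 3908 cKO). Scrublet (scanpy 1.11.5, expected rate 0.06, seed 1) marked 0 doublets automatically, so the 8% with the highest scores were removed per library (307 and 313). UMIs were summed per main-myosin class and library and divided by all UMIs of the class (CPM). Intervals are exact at 95%: Poisson for CPM, Clopper-Pearson for shares, conditional for ratios. A gene with 0 UMIs on one side was set to a floor of 3 UMIs, with no fold where that bound pointed the other way. Genes with at least 20 UMIs over both sides of a comparison formed its background. Assignment and intervals were tested on simulated data. GENCODE M21 gave coordinates for 27722 of 27998 gene identifiers, and RefSeq (GRCm38.p6) gave promoters.

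The 10 genes, the further lists and the thresholds were chosen with earlier results of these data known. From each further list the 4 genes with the largest ratio in Myh4-main nuclei were named, among those with at least 50 UMIs and an interval that excluded no difference. Some genes that this rule and the ranking by likeness pick are not reported here. Markers were used as lists, and no protein sequence was used here. Alternatives changed the doublet step, depth, myosin cut, totals, averaging, scaling, outside-marker nuclei, background and fold. Scripts ran in Python 3.11.15 with scipy 1.17.1 and numpy 2.4.6, tables were handled in pandas 2.3.3, and plots were drawn in matplotlib 3.10.9.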

Additional observations from a re-analysis of the deposited data

Results flagged for a closer look

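Cacna1s and Clcn1 had log2 ratios of cKO over Ctrl with opposite signs in different classes, each with an interval that excluded 0. Cacna1s was higher in cKO in Myh2-main nuclei (0.45) and Myh4-main nuclei (0.55) and lower in Myh1-main nuclei (−0.30), a value that became 0.15 with classes assigned after thinning to 500 UMIs. Clcn1 was higher in Myh4-main nuclei (0.12) and lower in Myh7-main nuclei (−1.02), the last on 14 Ctrl UMIs and turning to 0.15 without nuclei that held outside markers. With 1 library per group the difference between the classes was not tested.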

How the results depend on the processing

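No paired analysis was possible because each group had 1 library, and no replicate could be left out. Of 1158 values recomputed under alternatives, most stayed within their counting interval. Among log2 ratios of cKO over Ctrl, 6 of 217 values changed sign where the interval excluded 0, and 55 of 244 where it included 0. Cacng1 in Myh1-main nuclei ranged from 1.92 to 2.48, and in Myh4-main nuclei Cacna1s ranged from 0.44 to 0.62, Cacnb1 from 0.95 to 1.70 and Ryr1 from 0.30 to 0.39.

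Assigning the main myosin after thinning to 500 UMIs left fewer nuclei (113 cKO and 11 Ctrl Myh7-main nuclei). It turned Cacna1s in Myh1-main nuclei to 0.15, Jph1 in Myh4-main nuclei to −0.018, Scn4a in Myh4-main nuclei to −0.14 and the Myh1-main share to −3.71 points. It also set the share differences at 0.855 points for Myh2-main and −7.76 points for Myh4-main nuclei, with 3 genes at least 1.5-fold higher in Myh7-main and 1 lower in Myh2-main nuclei. Jph1 over assigned nuclei turned to 0.020 without Malat1 and mitochondrial genes in the total and to 0.025 relative to the median gene. Clcn1 in Myh7-main nuclei turned to 0.15 without nuclei that held outside markers. The cause of these was not tested.

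The number of genes at least 1.5-fold higher in Myh2-main nuclei was 2 with at least 5 myosin UMIs, with averaged single-nucleus CPM and relative to the median gene, 3 without Malat1 and mitochondrial genes, and 0 without outside-marker nuclei or with genes of at least 100 UMIs. In Myh4-main nuclei it was 3 without Malat1 and mitochondrial genes, and in Myh4-main and in assigned nuclei it was 1 with doublets kept and 1 with averaged single-nucleus CPM, and in assigned nuclei 1 with a myosin share of at least 80%, which also gave a Myh2-main difference of 4.37 points. At 2-fold it was 0 in Myh7-main, 0 in Myh2-main, 1 in Myh4-main and 0 in assigned nuclei. The cause was not tested. In the neuromuscular nuclei, under both alternatives added after the data were seen (doublets kept, at least 5 marker UMIs), Cacng1 stood at 1.06 and 1.20, Scn4a at 0.96 and 0.85, and Jph2 at −0.53 and −0.22, while Cacna1s went from 0.07 to −0.03 and −0.11. Cacnb1 went from 1.49 to 1.05 and 2.35. Depth limits the Myh7-main values most, since the 21 Ctrl nuclei held 43949 UMIs.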

Other observations

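Atf3 encodes a transcription factor of the stress response, and nuclei with an Atf3 UMI were looked at after its values had been seen. In cKO, 162 assigned nuclei held an Atf3 UMI and 2334 did not, with medians of 2377 and 1698.5 UMIs. Nuclei with Atf3 had 792 CPM of Cacna2d1, against 1189 CPM in those without, a log2 ratio of −0.59. Cacna1s had 203 and 299 CPM (−0.56), and Ryr1 had 2686 and 3312 CPM (−0.30). Jph1, Jph2 and Clcn1 were also lower, at −0.48, −0.45 and −0.44, while the intervals of Cacnb1, Cacng1, Stac3 and Scn4a included 0. In cKO Myh4-main nuclei Cacna2d1 stood at −0.57 and Ryr1 at −0.27, and Jph1, Jph2 and Clcn1 at −0.39, −0.37 and −0.48, all with intervals below 0. Cacna1s stood at −0.12 there (−0.53 to 0.27). In cKO Myh7-main nuclei Jph2 was higher with Atf3, at 0.90 (0.23 to 1.51). Over the 42 Ctrl assigned nuclei with Atf3, Jph1 and Clcn1 were lower (−0.23 and −0.51), and the other intervals included 0. No share of all genes is given for these ratios. The nuclei with Atf3 were deeper, and the part of depth and of main myosin in the values over all assigned nuclei was not tested.

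Over the 10 points given by the classes and mixed nuclei of both libraries, 3037 genes were ranked by the correlation of log2(CPM + 10) with 4 members, as a description over points that share libraries and depth. Ryr1 was followed most closely by Casq1, the calcium-binding protein of the sarcoplasmic reticulum, at r = 0.98, then by Vps37a and Rnf150 at 0.95. Cacna2d1 was followed by Sobp at 0.97 and by Maf and Cdc14b at 0.96. The values were lower for Scn4a (Tpd52l1 0.80, Usp33 0.77, Malt1 0.75) and for Cacna1s (Sypl2 0.73, Ccdc57 0.72).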
